A study of Mus musculus with 12 samples.

Results

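The nuclear genes of respiratory complex I, taken as all genes whose symbol begins with Nduf and does not contain -ps, were followed in hematopoietic stem cells (HSCs) of WT and Pon2-/- mice. This rule was met by 49 of the 49585 genes counted. They are 7 core subunits, 29 accessory subunits, 8 assembly factors (Ndufaf1 to Ndufaf8), the pair Ndufa4 and Ndufa4l2, and the 3 processed pseudogenes Ndufs6b, Ndufb4c and Ndufa11b, spread over 17 chromosomes. RNA-seq counts were available for 6 mice per genotype, all aged 10 to 14 weeks. WT mice were C57BL/6J animals from Charles River, and Pon2-/- mice, labelled with the same background, carry a β-geo gene trap between loxP sites in intron 2 of Pon2, the gene of the antioxidative enzyme paraoxonase 2. The trap reduces Pon2 rather than deleting the gene, and the source of the animals differs together with the genotype, so that the 2 cannot be told apart. HSCs were sorted as Lin-, Sca1+, ckit+, CD135- and CD150+ cells. They are labelled LT-HSCs, while the study describes this gate as LT-HSCs mixed with MPP2 cells. For each mouse, 8 wells of 10 cells were collected and their counts are given as 1 sample.

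Complex I is the entry point of the respiratory chain: it takes electrons from NADH, hands them to ubiquinone and pumps protons across the inner mitochondrial membrane. Its catalytic core is conserved from bacteria and is encoded partly in the nucleus and partly in mitochondrial DNA, while the accessory subunits surround and stabilise it and the assembly factors build it without remaining in the finished enzyme. HSCs are known for low mitochondrial respiration, and complex I is a known site of superoxide formation, the kind of radical stress against which Pon2 acts.

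Total counts were 12967791 to 24228280 in WT and 14671353 to 23122382 in Pon2-/- samples. Levels are given in CPM (counts scaled to a TMM-adjusted library of 1000000), and 3 counts, the limit that a count of 0 allows, correspond to 0.124 to 0.231 CPM, a limit for counting error only. Pon2 had 56.4 to 202 CPM in WT HSCs (median 105) and 1.16 to 33.1 CPM in Pon2-/- HSCs (median 29.9), without overlap. Of 8 genes that mark the sorted cells, such as Kit, Ly6a and Slamf1, all were present in both genotypes, with summed levels of 1812 to 2433 CPM in WT and 1755 to 2356 CPM in Pon2-/- HSCs. Flt3, which encodes the CD135 excluded by the sort, had 4.59 to 49.3 CPM in WT and 26.7 to 65 CPM in Pon2-/- HSCs. Of 6 T lineage genes, Cd3e, Cd8a and Cd8b1 were at 0 in all samples, and the list summed to at most 2.76 CPM in any WT mouse and 6.24 CPM in any Pon2-/- mouse. The 6 B lineage genes summed to 25.5 to 319 CPM in WT and 58.8 to 478 CPM in Pon2-/- HSCs, 8 erythroid genes to 9.16 to 61.8 and 16.4 to 47.0 CPM, and 5 megakaryocyte genes to 137 to 185 and 76.3 to 213 CPM. The 8 granulocyte and monocyte genes summed to 315 to 8510 CPM in WT and 302 to 13788 CPM in Pon2-/- HSCs. Their part in the values of the complex I genes was not tested.

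After the filter on low counts, 45 of the 49 genes could be compared, among them all 36 subunits, all 8 assembly factors and Ndufa4. To compare levels between genes, the mean CPM over the 12 mice was divided by the length of the longest principal transcript in kb. By this measure Ndufa4 (631 CPM per kb), Ndufa7 (582), Ndufa3 (581), Ndufa2 (568) and Ndufb9 (545) stood highest. All 5 encode small proteins, and the last 4 differed from each other by less than the spread between mice. The lowest levels per kb belonged to Ndufb2 (13.7), Ndufaf4 (15.7), Ndufaf5 (19.6), Ndufb4 (26.4) and Ndufab1 (30.6), the mitochondrial acyl carrier protein. The rank of Ndufb2 and Ndufab1 rests on long annotated isoforms of 4371 and 3479 bases, and with the shortest principal transcript their levels were 132 and 75.2 CPM per kb. For 390 of its 971 bases Ndufb4 is identical to the pseudogene Ndufb4c, and Ndufab1 is 99.8% identical to Gm4459 over 468 bases. Reads that map to several places were not counted, so that the levels of Ndufb4 and Ndufab1 can be understated.

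The core subunits, of which the enzyme holds 1 copy each, differed widely in their transcripts. Ndufs7, which carries the last iron-sulfur cluster before ubiquinone, had 380.4 CPM per kb, Ndufs8, another iron-sulfur subunit of the same arm, 356, and Ndufv2 of the NADH-oxidising module 221. Ndufs3 of the ubiquinone-reducing module had 79.5 CPM per kb. Ndufv1, which binds NADH and flavin, had 103, and Ndufs1, the largest subunit of the NADH-oxidising module, 42.8. Among the assembly factors Ndufaf8 stood highest with 110.1 CPM per kb, and the other 7 had 15.7 to 73.2. How much of these differences between genes comes from transcript annotation or from amplification of the cDNA was not tested.

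**Figure D1:**
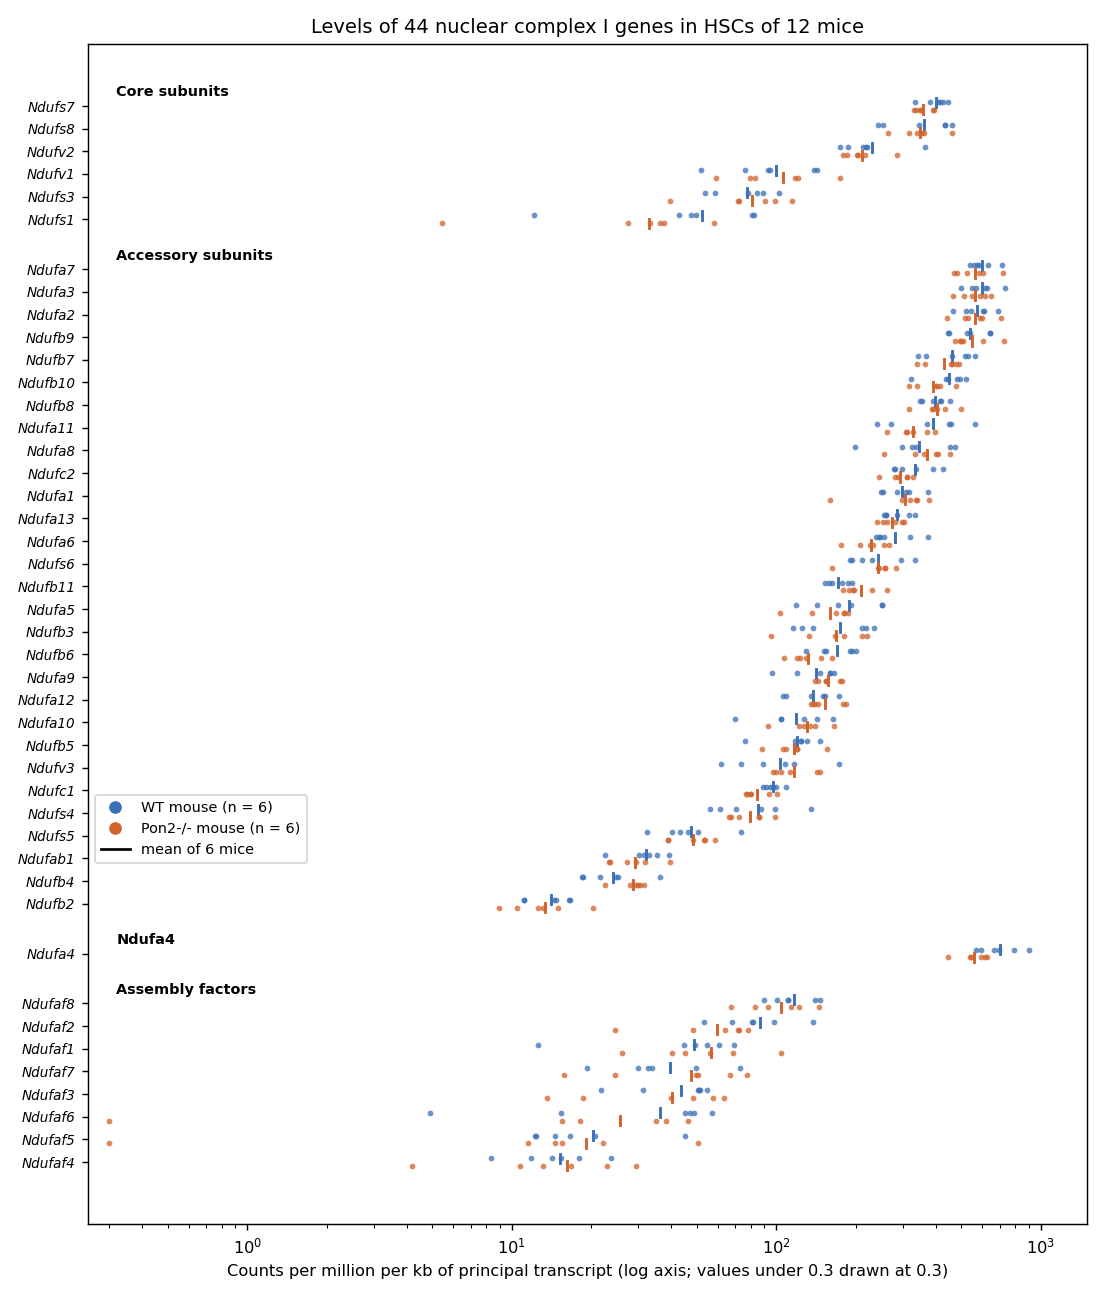
Level of each of 44 of the 45 compared complex I genes per mouse, in CPM per kb of the longest principal transcript on a log axis, with WT mice in blue, Pon2-/- mice in orange and a bar at each mean of 6 mice. Subunits span 13.7 to 582 CPM per kb, the points of both genotypes overlap for every gene drawn, and the assembly factors Ndufaf5 and Ndufaf6 each have 1 Pon2-/- mouse at the left edge.

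Promoter windows of 300 bases (250 before and 50 after the RefSeq start, GRCm38.p6) were matched for 40 of the 45 genes and searched on both strands for letters bound by known regulators of respiratory chain genes. The letters AAGATGGC, the centre of the motif of the transcription factor YY1, were found in windows of 8 of the 40 genes (20%) and of 862 of the 27025 genes with a window (3.19%). In all 8 they lay on the gene's own strand, 10 to 38 bases after the start. Of all genes, 280 (1.04%) had the letters on this strand anywhere in the 50 bases after the start. The ATG within these letters is an annotated start codon in 7 of the 8, the exception being Ndufaf8, so that the motif and the start of translation share the same bases. The windows are shown with the 8 letters in capitals. They belong to a core subunit, accessory subunits and an assembly factor, and the ETS and CCAAT letters described below also occur in all of these classes.
Ndufs7 (chr10:80249462-80249491, plus strand): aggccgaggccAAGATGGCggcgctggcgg
Ndufs4 (chr13:114388045-114388074, minus strand): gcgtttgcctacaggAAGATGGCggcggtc
Ndufs6 (chr13:73328433-73328462, minus strand): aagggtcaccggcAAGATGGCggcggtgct
Ndufa3 (chr7:3617384-3617413, plus strand): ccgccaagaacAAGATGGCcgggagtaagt
Ndufa9 (chr6:126849097-126849126, minus strand): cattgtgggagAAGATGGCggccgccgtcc
Ndufb8 (chr19:44555393-44555422, minus strand): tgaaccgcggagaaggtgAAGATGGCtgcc
Ndufc1 (chr3:51408915-51408944, minus strand): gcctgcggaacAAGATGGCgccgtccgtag
Ndufaf8 (chr11:120098933-120098962, plus strand): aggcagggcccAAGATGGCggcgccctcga

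The palindrome GCGCATGCGC, the site of nuclear respiratory factor NRF1, was found in 3 of the 40 windows (7.5%) and in 1.07% of all genes, and is shown here in capitals. Of these 3 genes, 2 encode assembly factors.
Ndufa11 (chr17:56717692-56717721, plus strand): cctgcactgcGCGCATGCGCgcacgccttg
Ndufaf4 (chr4:24897960-24897989, plus strand): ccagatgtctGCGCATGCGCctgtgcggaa
Ndufaf5 (chr2:140170652-140170681, plus strand): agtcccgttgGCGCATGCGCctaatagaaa

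Letters of ETS factors (CCGGAAG, read CTTCCGG on the other strand) were present in 6 of the 40 windows (15%) and 9.93% of all genes. The letters of a TATA box (TATAAA) were present on either strand in 4 (10%, against 15.7% of all genes) and CCAAT in 14 (35%, against 41.1%). The TATAAA letters lay at -235 to -52 from the start, and the search did not ask for the place of a TATA box. The ETS letters end and the YY1 letters begin with AAG, so that both can share bases, and Ndufaf8 was the gene of the family with both, where the ETS letters lie upstream of the YY1 letters and share no base with them. These matches are letters in a window and no measure of binding. For every motif, the 40 genes encode proteins and passed the filter on low counts, while the shares of all genes were taken without these limits.

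The accessory subunits belonged to the evenly measured genes of these small pools. Within genotypes, the coefficient of variation (CV) between mice had a median of 19.6% over the 36 subunits (8.86% to 51.7%), of 46.0% over the 8 assembly factors and of 56.2% over all 11848 genes compared. The CV falls with the level, and among the genes with a mean level of 100 to 400 CPM it was 28.8% over 1955 genes and 19.2% over the 31 subunits in this range, while the 6 core subunits among them had 29.6%, no lower than all genes. The accessory subunits had a median of 18.1%, with Ndufc1 at 9.46% as the lowest of them. The core subunits had a median of 28.5% and held both ends of the range, Ndufs7 at 8.86% and Ndufs1 at 51.7%. A sample under 10% of the gene's median was found for 2 of the 45 genes, Ndufaf5 and Ndufaf6, and for 40.5% of all genes compared.

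**Figure D2:**
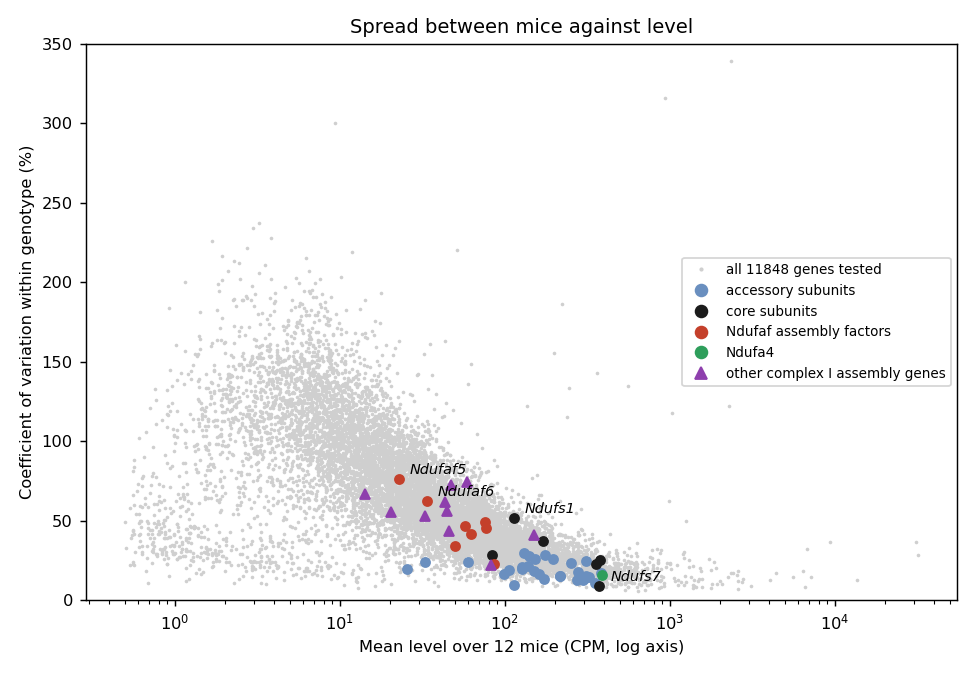
Coefficient of variation between mice of the same genotype (%) against the mean level over 12 mice (CPM, log axis) for all 11848 genes compared (grey) and for 44 of the complex I genes (coloured by class, triangles for 10 other assembly genes). Most accessory subunits lie along the lower edge of the cloud, while Ndufaf5, Ndufaf6 and Ndufs1 lie higher, at 76.2%, 62.1% and 51.7%.

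The order of the 36 subunits by CPM per kb was broadly alike between mice, while the highest subunit changed among Ndufa7, Ndufa3, Ndufa2 and Ndufb9. The transcript length used is the same in every mouse, and its part in this likeness was not tested. Spearman's rho between the profiles of 2 mice was 0.90 to 0.98 over the 66 pairs, with a median of 0.94 both within and between genotypes, as a description across genes that share libraries. For the 8 assembly factors, ordered by CPM without division by length, the median rho was 0.44 and the lowest -0.19. These are fewer genes in a narrower range of mean levels, 22.9 to 86.0 CPM against 25.6 to 384 CPM for the subunits. The values of rho are therefore not comparable between the 2 classes. When the deviations of each mouse from its genotype's mean were correlated between pairs of genes, the median r over the 12 mice was 0.10 for the 630 pairs of subunits, 0.25 for the 21 pairs of core subunits, -0.087 for the 28 pairs of assembly factors and -0.0072 for all pairs of genes compared. Over 12 mice such weak values are no finding.

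Between genotypes, no nuclear complex I gene passed. With edgeR's quasi-likelihood test, 0 of the 45 genes reached an FDR below 0.05 and a fold change above 2, and 24 of the 11848 genes compared did (0.203%). At the FDR alone the counts were 0 of 45 and 25 (0.211%). DESeq2, limma voom and every other setting also gave 0 of the complex I genes, although DESeq2 called 1.77% of all genes with its default and 5.21% without Cook's cutoff, and voom 0.194%. An unadjusted p below 0.05 was given to 1 gene by edgeR (Ndufa4, against 3.13% of all genes), to 3 by DESeq2 (Ndufa4, Ndufb6 and Ndufb11, against 5.71%) and to 2 by voom (Ndufa4 and Ndufb6, against 6.36%). The genotypes overlapped for each of the 45 genes, and 0.633% of all genes were without overlap. In bulk samples such as these, fewer cells of one kind and less RNA per cell cannot be told apart.

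For most of the genes the interval is narrow enough to bound the difference. The 95% interval of the fitted fold change lay within a 2-fold change either way for 38 of the 45 genes and for 25.5% of all genes compared. It lay within 0.5 on the log2 scale for 13 of the 45, among them Ndufs7, Ndufs8, Ndufa13 and Ndufb8, and for 4.41% of all genes. The 45 genes had a median level of 152 CPM, against 34.1 CPM for all genes compared. The shares were not compared at matched levels. A 2-fold change remained inside the interval for Ndufs1, Ndufb4, Ndufaf1, Ndufaf2, Ndufaf5, Ndufaf6 and Ndufaf7. The median log2 fold change (Pon2-/- to WT) was -0.049 over the 36 subunits, of which 14 had a positive and 22 a negative value, and -0.0092 over all genes compared. The core and the accessory subunits each had a median of -0.049.

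**Figure D3:**
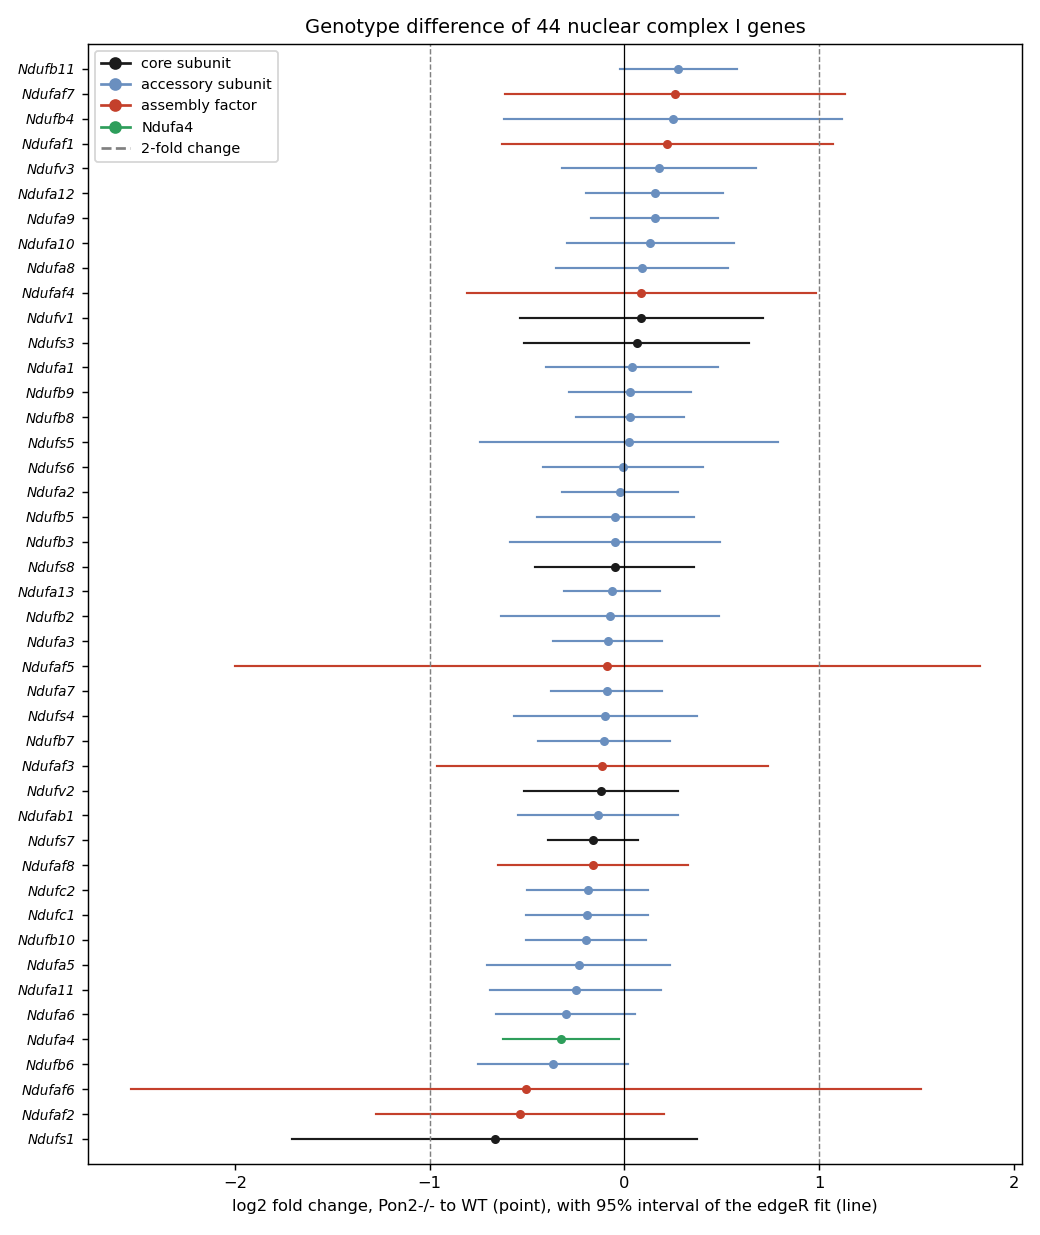
Log2 fold change of Pon2-/- to WT HSCs for 44 of the 45 complex I genes (points) with the 95% interval of the edgeR fit (lines), ordered by value and coloured by class; dashed lines mark a 2-fold change. Values run from -0.67 (Ndufs1) to 0.28 (Ndufb11), 37 of the intervals drawn stay between the dashed lines, and those of the assembly factors are among the widest.

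Of the core subunits, Ndufs1 had the value farthest from 0. It had 32.4 to 219 CPM in WT HSCs (median 129) and 14.5 to 155 CPM in Pon2-/- HSCs (median 92.9). WT replicate 6 (32.4 CPM, 528 counts) and Pon2-/- replicate 6 (14.5 CPM, 241 counts) were far below the others of their genotype, and the groups overlapped. The log2 fold change was -0.67 (95% interval -1.71 to 0.38, standard error 0.48), with an unadjusted edgeR p of 0.191. Ndufs7, by contrast, was the most evenly measured gene of the family, with 328 to 436 CPM in WT HSCs (median 406) and 326 to 388 CPM in Pon2-/- HSCs (median 345). Of the 6 Pon2-/- mice, 4 had less than 5 of the 6 WT mice. Its log2 fold change was -0.16 (95% interval -0.39 to 0.072, standard error 0.11).

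Ndufv2 had 296 to 621 CPM in WT HSCs (median 367) and 302 to 485 CPM in Pon2-/- HSCs (median 344), and the highest mouse of each genotype stood apart. The log2 fold change was -0.12 (95% interval -0.52 to 0.28, standard error 0.18). Ndufs8 had 243 to 463 CPM in WT HSCs (median 392) and 265 to 462 CPM in Pon2-/- HSCs (median 349), with fully overlapping mice and a log2 fold change of -0.049. Ndufv1 and Ndufs3 had small positive fold changes on the log2 scale. Ndufv1 had a mean of 165 ± 59.0 CPM in the WT mice and of 176 ± 68.3 CPM in the Pon2-/- mice (SD, n = 6 each) and Ndufs3 a mean of 81.3 ± 19.6 CPM in the WT mice and of 85.0 ± 27.2 CPM in the Pon2-/- mice (SD, n = 6 each). The log2 fold changes of Ndufv1 and Ndufs3 were 0.087 and 0.063, and the sign of each turned under other settings.

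Among the accessory subunits, Ndufb6 and Ndufb11 had the smallest p-values, in opposite directions. Both belong to the membrane arm of the enzyme. Ndufb6 had 85.5 to 132 CPM in WT HSCs (median 113) and 70.5 to 107 CPM in Pon2-/- HSCs (median 83.2), so that 5 of the 6 Pon2-/- mice lay below 5 of the 6 WT mice. Its log2 fold change was -0.37 (95% interval -0.75 to 0.021, standard error 0.18), with an unadjusted edgeR p of 0.0621. Ndufb11, an X-linked gene, had 138 to 175 CPM in WT HSCs (median 154) and 162 to 238 CPM in Pon2-/- HSCs (median 178). The Pon2-/- mice stood higher but overlapped with WT, and the log2 fold change was 0.28 (95% interval -0.020 to 0.58, standard error 0.14) with an unadjusted edgeR p of 0.0652. Under the other settings the unadjusted p of Ndufb6 was below 0.05 in 5 of 20 and that of Ndufb11 in 3 of 20.

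Ndufa6, a subunit of the LYR protein family at the foot of the matrix arm, had 141 to 221 CPM in WT HSCs (median 148) and 104 to 158 CPM in Pon2-/- HSCs (median 135), and WT replicate 1 with 221 CPM set the upper end. Its log2 fold change was -0.30 (95% interval -0.66 to 0.057, standard error 0.17), with an unadjusted edgeR p of 0.0932. Ndufb10, Ndufc2 and Ndufc1, all of the membrane arm, had log2 fold changes of -0.20, -0.19 and -0.19. Ndufc1 was even in both genotypes, with a mean of 121 ± 8.64 CPM in the WT mice and of 106 ± 12.5 CPM in the Pon2-/- mice (SD, n = 6 each). The 4 accessory subunits with the highest levels per kb also differed little between genotypes. Ndufa2, Ndufa3, Ndufa7 and Ndufb9 had log2 fold changes of -0.024, -0.086, -0.090 and 0.031, each with a standard error between 0.13 and 0.15. The log2 fold changes of the 29 accessory subunits ran from -0.37 to 0.28.

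Ndufa4, first described with complex I and later as a subunit of cytochrome c oxidase, was the most abundant gene of the family and the one with an unadjusted p below 0.05. It had 346 to 550.1 CPM in WT HSCs (median 416) and 272 to 382 CPM in Pon2-/- HSCs (median 348). All Pon2-/- mice lay below the WT median, while the lowest WT mice lay among them. The log2 fold change was -0.32 (95% interval -0.62 to -0.026, standard error 0.14), with an unadjusted edgeR p of 0.0353 and an adjusted p of 1.0 over all genes compared. Over the 20 other settings the unadjusted p was 0.0165 to 0.0940, below 0.05 in 14 of them. Ndufa4 lies on chromosome 6 (11900292 to 11907497, minus strand), 6.60 Mb from Pon2. Genes of the family at greater distance on this chromosome had log2 fold changes of -0.23 (Ndufa5, 19.2 Mb), -0.075 (Ndufb2, 34.3 Mb) and 0.16 (Ndufa9, 121.5 Mb), and whether the position bears on the value was not tested. Ndufa4l2, the paralog known for its induction by hypoxia, had 0 counts in all 12 samples.

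**Figure D4:**
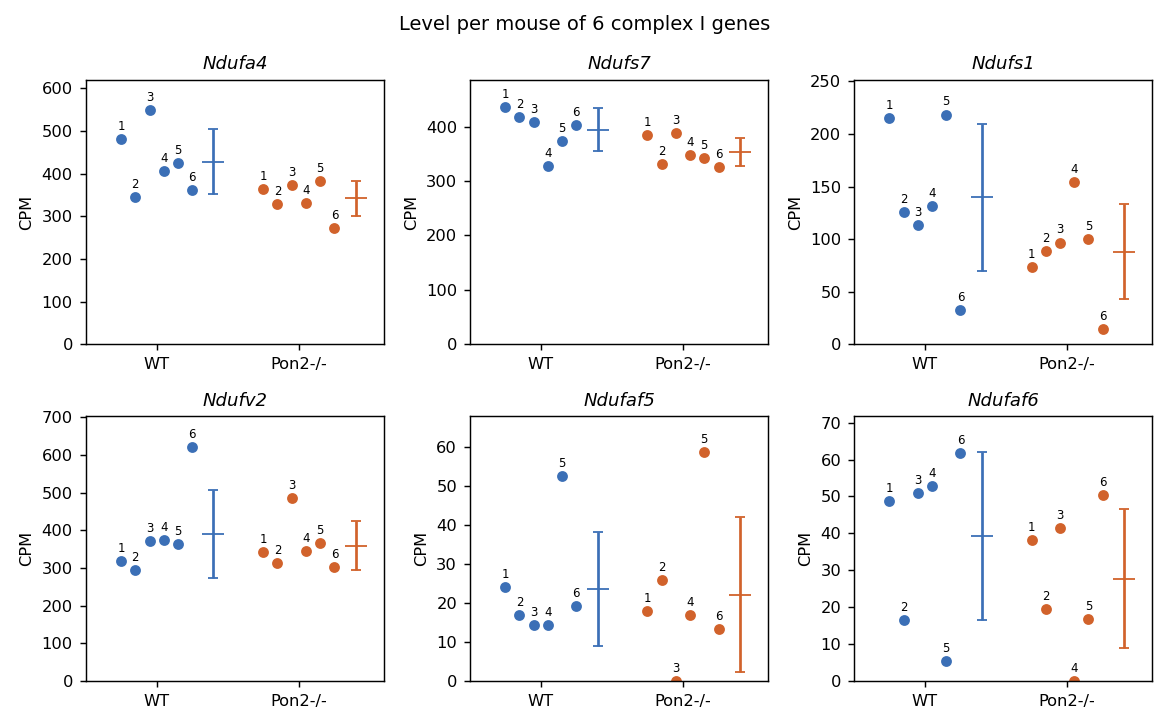
Level (CPM) per mouse of Ndufa4, Ndufs7, Ndufs1, Ndufv2, Ndufaf5 and Ndufaf6 in WT and Pon2-/- HSCs, each point labelled with its replicate number, and mean ± SD of 6 mice beside the points. Ndufa4 and Ndufs7 are even, replicate 6 of both genotypes is low for Ndufs1 (32.4 and 14.5 CPM), and single mice are near or at 0 for Ndufaf5 and Ndufaf6.

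The assembly factors were lower and more uneven than the subunits. The CV falls with the level, and no comparison at matched levels was made for the assembly factors. Their median mean level was 59.7 CPM, against 173 CPM for the subunits and 34.1 CPM for all genes compared, and their median log2 fold change was -0.10, with 3 positive and 5 negative values. Ndufaf2, which stays bound to a late intermediate of the matrix arm, had 36.3 to 93.2 CPM in WT HSCs (median 55.2) and 16.7 to 52.7 CPM in Pon2-/- HSCs (median 46.0). Its log2 fold change was -0.53 (95% interval -1.27 to 0.20, standard error 0.34), with an unadjusted edgeR p of 0.143, and the genotypes overlapped.

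Ndufaf5 hydroxylates an arginine of Ndufs7 and has Ndufaf8 as its partner. It had 14.2 to 52.5 CPM in WT HSCs (median 18.2) and 0.0569 to 58.9 CPM in Pon2-/- HSCs (median 17.5). One mouse per genotype was high, WT replicate 5 with 52.5 CPM and Pon2-/- replicate 5 with 58.9 CPM, and Pon2-/- replicate 3 held 1 count. The log2 fold change was -0.087 (95% interval -2.00 to 1.83, standard error 0.89). Ndufaf8 was more even, with 70.1 to 114 CPM in WT HSCs (median 86.5) and 52.6 to 113 CPM in Pon2-/- HSCs (median 80.9) and a log2 fold change of -0.16. Ndufaf6, which acts early in assembly, was at 0 counts in Pon2-/- replicate 4 and at 73 counts in WT replicate 5, in ranges of 5.30 to 61.8 CPM in WT HSCs (median 49.8) and 0 to 50.3 CPM in Pon2-/- HSCs (median 28.8). Its interval, -2.54 to 1.52 around a log2 fold change of -0.51, was the widest of the family.

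Ndufaf7, an arginine methyltransferase of complex I assembly, had 33.5 to 127 CPM in WT HSCs (median 58.1) and 27.6 to 135 CPM in Pon2-/- HSCs (median 87.7) and a log2 fold change of 0.26. Ndufaf1, a part of the membrane arm assembly complex, had 18.3 to 100.2 CPM in WT HSCs (median 75.7) and 37.7 to 151 CPM in Pon2-/- HSCs (median 73.4) and a log2 fold change of 0.22. For both genes the mice of the genotypes were intermixed. Ndufaf3 and Ndufaf4, which bind each other and an early intermediate of the matrix arm, had log2 fold changes of -0.11 and 0.087, with a mean of 64.7 ± 20.1 CPM in the WT mice and of 59.8 ± 30.4 CPM in the Pon2-/- mice for Ndufaf3 and a mean of 55.3 ± 19.1 CPM in the WT mice and of 58.7 ± 32.6 CPM in the Pon2-/- mice for Ndufaf4 (SD, n = 6 each).

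Other genes of complex I assembly, outside the Nduf names, were no more even. Of 10 such genes, 0 passed with edgeR and 0 had an unadjusted p below 0.05, their median CV was 55.5%, and 6 of the log2 fold changes were positive. The extremes were Foxred1, an oxidoreductase of assembly, with 0.98 ± 0.52 (standard error) and Dmac1, a factor of the distal membrane arm, with -0.50 ± 0.24. Of 8 regulators of nuclear respiratory genes, among them Nrf1, Yy1, Gabpa, Tfam and Ppargc1a, 0 passed and 0 had an unadjusted p below 0.05. Nrf1 and Yy1, whose letters were found in the windows above, had log2 fold changes of 0.065 and 0.096 with standard errors of 0.44 and 0.53.

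Summed over the 36 subunits, WT mice had 7511 ± 653 CPM and Pon2-/- mice 7253 ± 501 CPM (SD, n = 6 per genotype). The WT mice ranged from 6761 to 8572 CPM and the Pon2-/- mice from 6610 to 7767 CPM, so that the difference of -3.43% was smaller than the spread between mice. The 8 assembly factors summed to 472 ± 58.8 and 456 ± 36.8 CPM. Complex II, the 4 nuclear Sdh genes, which also feed ubiquinone, summed to 1217 ± 203 and 1333 ± 226 CPM, and 0 of the 4 passed.

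The mitochondrially encoded partners of these subunits, the mt-Nd genes, summed to 10286 ± 2045 CPM in the WT and 11683 ± 2130 CPM in the Pon2-/- mice (SD, n = 6 per genotype), with overlapping ranges of 7296 to 12338 and 8305 to 14057. The ratio of this sum to that of the nuclear subunits was 1.39 ± 0.35 in WT and 1.63 ± 0.36 in Pon2-/- HSCs. It is a ratio of counted reads, without those that map to several places, and mt-Nd1 alone had a mean of 6398 CPM over all mice. Of the 7 mt-Nd genes, mt-Nd4l had 0 counts in all samples, mt-Nd1, mt-Nd2, mt-Nd4, mt-Nd5 and mt-Nd6 did not pass, with log2 fold changes of -0.11 to 0.29, and mt-Nd3 passed.

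mt-Nd3 had 814 counts over the 6 WT mice, 86 to 186 in each, and 0 in the Pon2-/- mice (edgeR, adjusted p = 0.00454). With a limit of 3 counts for the whole Pon2-/- group it was at least 271-fold lower, and at least 209-fold to 243-fold lower when 1 WT mouse was left out. The call was lost with a filter of at least 1 read over all samples (edgeR, adjusted p = 0.227) and with replicate numbers as a block (edgeR, adjusted p = 0.989), with a fitted log2 fold change of -10.11 under both, a value that depends on the prior count. Gm28438, a pseudogene singled out after its values were seen, differs from mt-Nd3 in 1 of the 345 bases compared. Its counts ran the other way, with 4 to 6 per WT mouse and 192 to 314 per Pon2-/- mouse. Both genes added up to 844 counts in WT HSCs (91 to 190 per mouse) and 1552 counts in Pon2-/- HSCs (192 to 314 per mouse). The fold is therefore that of reads assigned to mt-Nd3, and a lower amount of its transcript is not shown by these counts. The part of a sequence difference between the mouse stocks in this assignment was not tested.

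**Figure D5:**
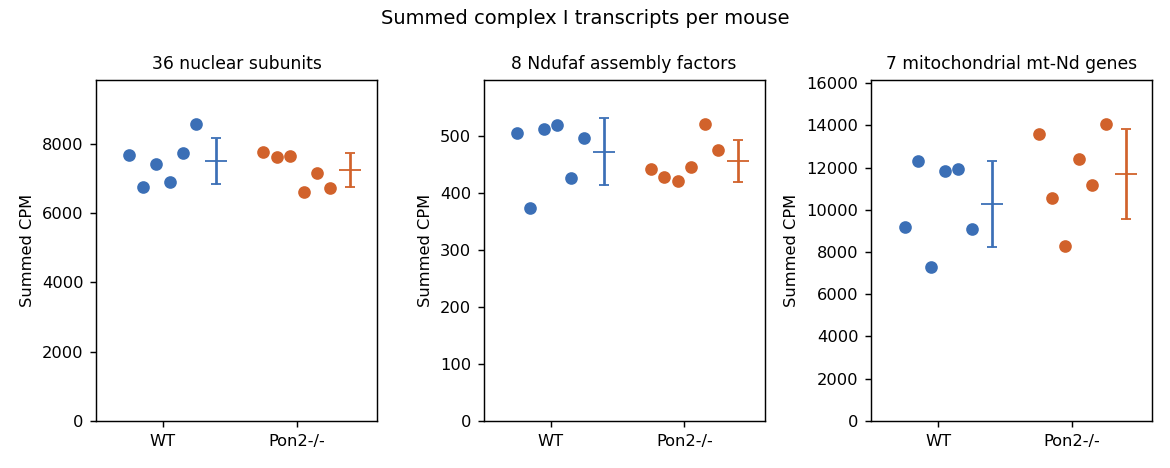
Summed level (CPM) per mouse of the 36 nuclear subunits, the 8 Ndufaf assembly factors and the 7 mt-Nd genes in WT and Pon2-/- HSCs, with mean ± SD of 6 mice beside the points and axes from 0. The genotypes overlap in each panel, with 6761 to 8572 and 6610 to 7767 CPM for the nuclear subunits.

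The same question of copies arises within the family. A copy elsewhere in the genome, at least 90% identical over at least 300 bases, was found for 12 of the protein-coding genes, such as Ndufb4 (identical to Ndufb4c over 390 bases), Ndufs3 (98.6% identical to Gm12251 over 792 bases) and Ndufs5 (99.4% identical to BC002163 over 319 bases). The copies held few counts, 1 to 18 per mouse for Ndufb4c and 8 to 47 for Gm12251, as the most of any copy. STAR's gene counts leave out reads that map to several places, so that the levels of these genes can be understated. The 3 pseudogenes among the 49 genes did not pass the filter on low counts, with at most 1.11 CPM in any mouse, reached by Ndufb4c. Exons of 19 of the 49 genes overlap those of another gene, in 17 cases on the other strand, among them Ndufs1, Ndufb6, Ndufb11 and Ndufaf2. The counts carry no strand, and STAR's gene counts leave out reads that overlap more than 1 gene, so that these levels can be understated.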

How the data were processed

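Smart-seq2 libraries of the 12 samples had been processed by the authors: adapters were trimmed with Trimmomatic 0.36, reads were aligned with STAR 2.5.3a to GRCm38.p5, and whole-number counts per GENCODE M12 gene were deposited, neither normalized nor filtered. The single count column was used as given and taken as unstranded. Names, positions and transcripts came from GENCODE M21 (GRCm38, 49326 of 49585 genes named), and promoter windows from RefSeq (GRCm38.p6).

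Samples were grouped by the labelled genotype, and nothing states that mice were matched by number. Genotypes were compared in R 4.3.3 with edgeR 4.0.16 (TMM, filterByExpr, glmQLFit, glmQLFTest) over all 11848 genes kept, with Benjamini-Hochberg adjustment, an FDR of 0.05 and a log2 fold change of 1. The biological coefficient of variation was 99.2%. DESeq2 1.42.0 and limma 3.58.1 (voom) served as alternatives. The CV is the SD within genotypes divided by the mean CPM. Copies were searched with BLAST 2.17.0. The procedure was tested on simulated data. No samples were duplicates, as the most alike pair differed in 16112 genes. Named genes were the core subunits, assembly factors, Ndufa4, Ndufa4l2, the 10 smallest unadjusted p, the 5 highest and 5 lowest levels per kb and all genes that failed the filter. Some genes of the lists are not reported here by name. The members and lists were chosen with earlier results of these data known.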

Additional observations from a re-analysis of the deposited data

Results flagged for a closer look

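In 5 of 94 groups of 6 mice (45 genes and 2 sums in both genotypes) 1 mouse stood apart from the others by Dixon's test at the 95% level, and chance alone gives about 1 in 20 groups. Ndufv2 had 621 CPM in WT replicate 6, against 296 to 374 CPM in the other WT mice, and 485 CPM in Pon2-/- replicate 3, against 302 to 366 CPM. Ndufa1 was low in Pon2-/- replicate 6, with 66.6 CPM against 125 to 159 CPM. Ndufs6 had 92.6 CPM in Pon2-/- replicate 4, against 137 to 162 CPM. The level of Ndufaf5 in WT replicate 5 was 52.5 CPM, against 14.2 to 24 CPM in the other WT mice.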

How the results depend on the processing

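That no nuclear complex I gene and none of the 10 other assembly genes passed held under all 20 alternatives, which were DESeq2's size factors, 2 other filters on low counts, DESeq2 with and without Cook's cutoff, limma voom with sample weights, robust estimation, the replicate block and leaving out each of the 12 samples. The median log2 fold change of the subunits was -0.090 to -0.021 on leaving out 1 sample and -0.053 to -0.041 otherwise, that of the assembly factors -0.26 to 0.048 and -0.22 to -0.091, and the log2 ratio of the summed subunits -0.079 to -0.015 and, with DESeq2's size factors, -0.042. With the replicate number as a block, 0 nuclear complex I genes passed and the medians were -0.045 (subunits) and -0.22 (assembly factors). Deviations of samples of the same number were hardly correlated (r = 0.00093 to 0.0430), and 1 of 6 WT samples correlated best with its own number. No pairing by number was seen, but in pools of few cells such values cannot exclude it.

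Of 35 genes named with a level or a fold change, 22 kept the sign of the fold change throughout and 13 did not, 10 of them only on leaving out 1 sample. limma voom gave -0.096 for Ndufaf4, -0.038 for Ndufs3 and -0.016 for Ndufv1, and the block gave -0.081 for Ndufaf4. On leaving out 1 sample the log2 fold changes were -0.064 to 0.20 for Ndufs3, -0.14 to 0.032 for Ndufs8, -0.12 to 0.22 for Ndufv1, -0.23 to 0.055 for Ndufv2, -0.10 to 0.034 for Ndufa2, -0.23 to 0.018 for Ndufb2, -0.065 to 0.084 for Ndufb9, -0.048 to 0.37 for Ndufaf1, -0.29 to 0.064 for Ndufaf3, -0.18 to 0.28 for Ndufaf4, -0.67 to 0.32 for Ndufaf5, -0.17 to 0.37 for Nrf1 and -0.067 to 0.51 for Yy1. The cause was not tested. With the shortest principal transcript, an alternative chosen after seeing the data, Ndufa4 had 852 CPM per kb. Few counts limit the precision for Ndufaf5 and Ndufaf6, of which 1 Pon2-/- mouse each held 1 and 0 counts.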
